A study of Mus musculus with 24 samples.

Results

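Cytochrome P450 enzymes of families 1 to 4 carry out most of the oxidation of drugs, foreign chemicals, steroids and fatty acids in the liver. On the arrays used here, 74 of 37008 gene names have the form of such a gene (Cyp, a family number from 1 to 4, a subfamily letter and a gene number), and 102 of 56605 probes measure them. The 74 genes fall into 22 subfamilies, and the choice used names only, with no measured value. RNA of liver and bone marrow came from male Erfe-/- mice, which lack erythroferrone, the hormone by which erythroblasts lower hepcidin after blood loss. Every group, including the controls, has this genotype, so no wild-type value stands beside these, and the age of the mice is not given in the sources used here. The mice were bled through the retro-orbital sinus and their tissues were taken 24 or 48 h later, or were taken as controls at 0 h. Each of the 6 groups (2 tissues at 3 times) has 4 mice and 4 one-colour arrays.

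P450 enzymes sit in the endoplasmic reticulum, bind heme and receive electrons from P450 oxidoreductase. Many of their genes are switched on by receptors that sense chemicals: the aryl hydrocarbon receptor for Cyp1a, the constitutive androstane receptor for Cyp2b, the pregnane X receptor for Cyp3a and PPAR-alpha for Cyp4a. In rodents, the male and female patterns of growth hormone release set the level of several members in a sex-dependent way, and inflammation is known for lowering many hepatic P450 transcripts. The liver values below are therefore given by subfamily and beside the acute phase transcripts Saa1 and Saa2.

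A level is the log2 signal of a probe minus the 75th percentile of its array, and a difference is the later time minus 0 h on that scale. In liver that percentile ran from 354.1 to 466.7 intensity units and in marrow from 693.8 to 941.8, and each liver array had 28014 to 34428 probes well above background. Differences were tested with limma, p-values were adjusted (Benjamini-Hochberg) for the 19639 genes tested in liver, and there the median standard error of a difference was 0.12. The p-values measure the spread between mice of a group, and in whole tissue fewer cells of a type and less RNA per cell cannot be told apart. Some libraries stood apart. In the livers numbered 1 and 2 at 24 h, Elovl3, a fatty acid elongase with male-predominant expression, was at 1.79 and 2.92 against 5.36 to 6.67 in the other 10 livers, and Angptl4, a lipase inhibitor, was at 0.64 and 1.79 against 3.32 to 5.65. Liver 3 at 48 h had 4 of 5 kidney markers above background (not Slc12a1) and a summed log2 kidney marker level of 2.51, against -2.28 to -0.44 in the other 11 livers. Of these markers, Slc34a1 and Aqp2 were above background on all 12 liver arrays, and the sum rests mostly on Kap, at 2.37. Marrow 2 at 24 h carried liver transcripts. Summed hepatocyte markers (Alb, Apoa1, Ttr, Serpina1b, Cps1, Tat and Fah) lay between 11.69 and 12.05 in every liver. The sum of the 5 erythroid markers detected, mostly globin RNA, lay at 7.68 to 8.0 at 0 h, 8.21 to 8.33 at 24 h and 8.20 to 8.87 at 48 h, so every bled liver was above every control, and its part in the results below was not tested. Values without these arrays are given beside the results that rest on them. The liver arrays were on 3 slides. Livers 3 and 4 at 24 h were both on slide 3, while the 0 h livers lay on slides 1, 2 and 3. A 24 h difference without livers 1 and 2 can therefore also hold a difference between slides.

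No member passed the threshold in liver at either time. Of the 74 members, 52 were well above background on every liver array, 15 on some and 7 on none. The 57 members tested had such signal on the 4 arrays of 1 time or more, and 5 of them (Cyp1a1, Cyp2g1, Cyp2t4, Cyp3a16 and Cyp4a14) lacked it on at least 1 array of another time. At an adjusted p under 0.05, 0 of the 57 were called at 24 h and 0% of all genes, the smallest adjusted p of a member being 0.314 (Cyp2f2). At an unadjusted p under 0.05, 7 members (12.3%) were higher, where 4.61% of all genes were, and 14 (24.6%) were lower, where 6.58% of all genes were. In 2 members (Cyp4a14 and Cyp4f16) all livers at 24 h lay above all livers at 0 h, where 2.1% of all genes did. In 5 (Cyp1a1, Cyp2d10, Cyp2f2, Cyp2g1 and Cyp4v3) all lay below, where 3.66% of all genes did. Of these, Cyp4a14 had signal on all 4 arrays at 24 h only and Cyp1a1 at 0 h only, while Cyp2g1 had it on 3 of 4 arrays at 24 h. For these genes the filter itself favours the side on which they lie. The 17 members not tested were Cyp2ab1, Cyp2b23, Cyp2c65, Cyp2c66, Cyp2j11, Cyp4a29 and Cyp4f37, which were on no liver array above background, and Cyp1b1, Cyp2b9, Cyp2b10, Cyp2b13, Cyp2b19, Cyp2c39, Cyp3a44, Cyp4f39, Cyp4f40 and Cyp4x1, which were so on 1 to 9 of 12. The member differences ran from -1.29 to 1.56 with a median of -0.11, beside -0.03 over all genes tested, and 37 of 57 members lay below 0, as 57.1% of all genes did.

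These shares rest in part on livers 1 and 2 at 24 h. Without both, 3 members were higher (Cyp4a10, Cyp4a14 and Cyp4a31; 5.26%, with 2.98% of all genes) and 3 were lower (Cyp2f2, Cyp4b1 and Cyp4v3; 5.26%, with 2.59%) at an unadjusted p under 0.05. Leaving out liver 1 alone gave 6 higher and 8 lower (3.28% and 4.25% of all genes), and leaving out liver 2 alone gave 5 higher and 7 lower (3.01% and 3.95%). Without liver 4 at 0 h, 12 members (21.1%) were below that p in either direction, with 8.29% of all genes, in place of 21 (36.8%) with 11.2%. Among the 52 members above background on every array, whose entry into the test does not hang on one time, 6 were higher and 12 lower, with 4.38% and 7.22% of the 17689 genes kept that way.

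At 48 h, 0 members and 0% of all genes were called, and the smallest adjusted p of a member was 0.508 (Cyp2a12). At an unadjusted p under 0.05, 1 member (Cyp2s1) was higher, with 2.44% of all genes, and 5 (Cyp2a4, Cyp2a5, Cyp2a12, Cyp2c70 and Cyp2f2) were lower, with 4.11% of all genes. The livers at 48 h lay entirely above those at 0 h in 0 members, with 1.67% of all genes, and entirely below in 2 (Cyp2a12 and Cyp2f2), with 2.67%. Member differences at 48 h ran from -0.92 to 0.86 with a median of -0.07, beside -0.02 over all genes. Between 48 and 24 h, 0 members and 0% of all genes were called, and 12 members differed at an unadjusted p under 0.05, with 7.67% of all genes. Cyp1a1 (1.34), Cyp1a2 (0.54), Cyp2d9 (0.79), Cyp2d10 (0.25), Cyp2d11 (0.53), Cyp2d34 (0.93), Cyp2g1 (0.95) and Cyp4v3 (0.39) were higher at 48 than at 24 h among these, and Cyp2c55 (-0.98), Cyp4f14 (-0.20), Cyp4f16 (-0.27) and Cyp4f18 (-0.24) were lower. The comparisons share their 24 h livers, so these are not separate evidence from the differences at 24 h. With livers 1 and 2 at 24 h left out, 7 members (6.03% of all genes) were below that p, and of the 12 above only Cyp4f16 was among them; the other 6 were Cyp2j5, Cyp2j6, Cyp2j8, Cyp2j13, Cyp4a10 and Cyp4a31. Without liver 3 at 48 h, Cyp2a4 and Cyp2a5 were no longer among the lower members, which left 3.

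**Figure D1:**
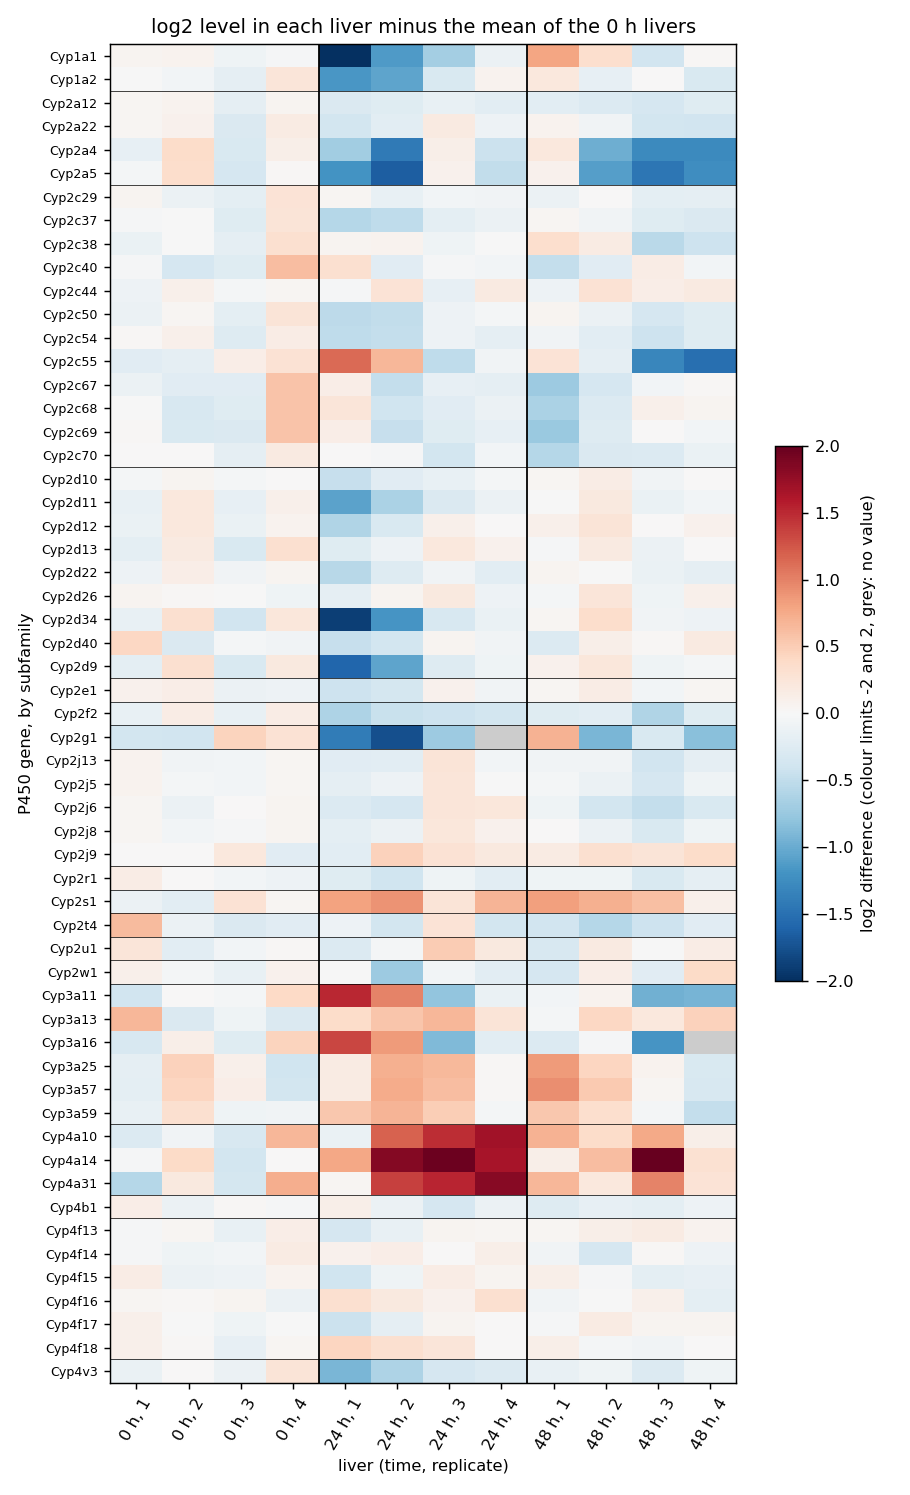
Heat map of the 57 P450 members tested in liver (rows, grouped by subfamily) in the 12 livers (columns, by time and replicate number). Colour is the log2 level minus the member's mean at 0 h, limited to -2 and 2, and grey marks a missing value. Livers 1 and 2 at 24 h are blue in most Cyp1a, Cyp2a and Cyp2d members, and the Cyp4a members are red in livers 2, 3 and 4 at 24 h.

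**Figure D2:**
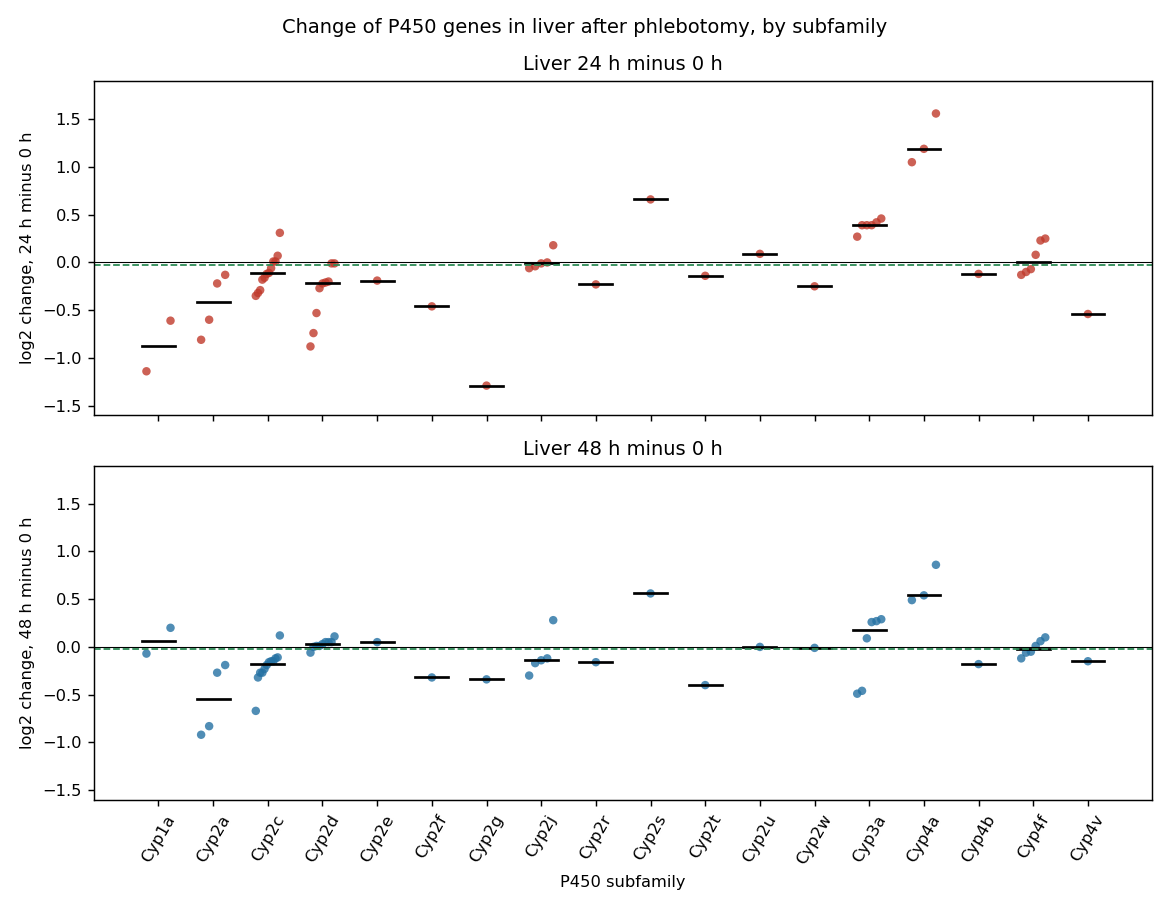
Differences from 0 h (log2) of each tested P450 member at 24 h and 48 h, by subfamily. A point is 1 member and the dashed line is the median of all genes tested (-0.03 at 24 h and -0.02 at 48 h). At 24 h all 9 Cyp2d members tested lie below 0 and the 6 Cyp3a and 3 Cyp4a members tested lie above it, while without livers 1 and 2 these counts are 6 of 9, 4 of 6 and 3 of 3.

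The Cyp1a enzymes oxidise planar aromatic compounds. Cyp1a2, which also demethylates caffeine and is abundant in pericentral hepatocytes, was at 3.59, 3.55, 3.43 and 3.84 at 0 h, 2.44, 2.55, 3.30 and 3.68 at 24 h and 3.81, 3.44, 3.61 and 3.29 at 48 h. The lowest of the 12 were livers 1 and 2 at 24 h. Liver 3 at 24 h, at 3.30, was also below all of 0 h, while liver 4 at 24 h lay among the livers of 0 h. Both lay within the range of 48 h. The difference was -0.61 (SE 0.25, 1.52-fold lower, adjusted p = 0.413) at 24 h and -0.07 at 48 h, and without livers 1 and 2 it was -0.11 at 24 h. Cyp1a1, the classic inducible target of the aryl hydrocarbon receptor, was close to background, at -3.87, -3.86, -4.01 and -3.95 at 0 h, -6.56, -5.05, -4.60 and -4.04 at 24 h and -3.13, -3.58, -4.30 and -3.90 at 48 h. All livers at 24 h lay below those at 0 h, but liver 1 at 24 h and liver 3 at 48 h were not well above background. The gene thus entered the test through 0 h alone, and its difference, -1.14 at 24 h and 0.20 at 48 h (0.39 without liver 3 at 48 h), is given as a description, and with normexp background correction it was -0.31 at 24 h. Without livers 1 and 2 its 24 h difference was -0.39. The pericentral marker sum, over 8 genes that were above background in every liver, was 7.47 and 7.5 in livers 1 and 2 at 24 h against 7.74 to 8.43 in the other livers, and its part in the Cyp1a2 values was not tested. The remaining Cyp1 gene, Cyp1b1, an enzyme of tissues other than liver, was above background on too few liver arrays to be tested.

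The 4 Cyp2a members tested lay below 0 at both times (3 of 4 at 24 h without livers 1 and 2), between -0.81 and -0.13 at 24 h and between -0.92 and -0.19 at 48 h. Cyp2a5, the mouse coumarin hydroxylase, was at 6.48, 6.88, 6.19 and 6.55 at 0 h, 5.33, 4.88, 6.61 and 6.04 at 24 h and 6.61, 5.43, 5.08 and 5.29 at 48 h. Livers 1, 2 and 4 at 24 h and livers 2, 3 and 4 at 48 h were below every liver at 0 h, and the others overlapped with 0 h. Its difference was -0.81 (SE 0.39, adjusted p = 0.465) at 24 h and -0.92 (SE 0.39, adjusted p = 0.730) at 48 h, and without livers 1 and 2 it was -0.20 at 24 h. Cyp2a4, a steroid hydroxylase, was low in the same livers, at 5.26, 5.79, 5.13 and 5.54 at 0 h, 4.74, 4.02, 5.55 and 5.0 at 24 h and 5.64, 4.45, 4.16 and 4.15 at 48 h. The difference was -0.60 at 24 h (-0.16 without livers 1 and 2) and -0.83 (SE 0.37, adjusted p = 0.740) at 48 h. Cyp2a12, a steroid and bile acid hydroxylase, spread less between mice, at 6.92, 6.96, 6.71 and 6.94 at 0 h, 6.59, 6.64, 6.74 and 6.67 at 24 h and 6.67, 6.61, 6.54 and 6.64 at 48 h. Its 48 h livers did not overlap with 0 h, by a difference of -0.27 (SE 0.07, adjusted p = 0.508, exact two-sided permutation p = 0.0286, the smallest that 4 against 4 mice can give), and its 24 h difference was -0.22.

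Cyp2a4 and Cyp2a5 are near-identical copies, and so are their promoters, which is why both are shown: over 300 bases (250 before to 50 after the transcript start) 98.0% of bases matched in alignment. The sequences are those of RefSeq on GRCm38.p6, plus strand, 5′ to 3′, chr7:26306942-26307241 for Cyp2a4 and chr7:26835089-26835388 for Cyp2a5, and capitals mark bases not matched in the alignment of the pair.
Cyp2a4: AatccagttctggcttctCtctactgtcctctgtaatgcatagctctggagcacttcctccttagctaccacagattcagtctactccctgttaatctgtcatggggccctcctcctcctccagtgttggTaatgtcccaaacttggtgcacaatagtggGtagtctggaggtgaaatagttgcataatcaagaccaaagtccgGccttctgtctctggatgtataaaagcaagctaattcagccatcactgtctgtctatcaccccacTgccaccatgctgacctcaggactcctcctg
Cyp2a5: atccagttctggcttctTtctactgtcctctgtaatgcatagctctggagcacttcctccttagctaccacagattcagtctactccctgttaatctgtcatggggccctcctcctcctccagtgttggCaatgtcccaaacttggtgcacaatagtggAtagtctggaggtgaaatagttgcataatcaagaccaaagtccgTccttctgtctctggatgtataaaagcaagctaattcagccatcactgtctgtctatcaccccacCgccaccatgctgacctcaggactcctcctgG
Both windows hold AGGTCA, the core element of many nuclear receptor sites, read on either strand. In both, the only match is on the other strand (printed as tgacct) within the 50 bases after the transcript start, with none before the start. A match was in 20 of the 68 member promoters (29.4%; 61 of 74 members have at least 1 promoter in the table) and in 16.3% of all 32851 promoters of this length. The probes of the pair share no run of 15 or more bases, and whether each also takes up the other's transcript was not tested.

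Cyp2b genes are the textbook targets of the constitutive androstane receptor, and Cyp2b9 and Cyp2b13 are known as female-predominant in mouse liver. None of the 5 members was above background on all arrays of a time, so none was tested and the values are given as a description. Cyp2b9, measured by a probe at chr7:26995607-26995666 on mm9, was at -2.36, -6.23, -3.49 and -3.62 at 0 h, 2.26, 0.94, -3.76 and -4.84 at 24 h and -4.61, -7.24, -3.38 and -6.36 at 48 h. It was above background on 3, 3 and 2 of 4 arrays at the respective times, and livers 1 and 2 at 24 h were higher than every other liver. Cyp2b10, by its probe with signal, was at -2.45, -6.17, -4.20 and -2.51 at 0 h, 1.83, 0.45, -3.98 and -4.39 at 24 h and -4.47, -6.07, -2.78 and -1.83 at 48 h. The same livers, 1 and 2 at 24 h, were again the highest, with signal above background on 3 of 4 arrays at each time, while the gene's other probe was above background on no liver array. Cyp2b13 was at -3.01, -4.17, -5.26 and -6.44 at 24 h and between -6.94 and -5.89 in the 8 livers of 0 and 48 h, and only 2 arrays, both at 24 h, were above background. No fold is given, since no time had all 4 arrays above background for any of these genes.

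The promoters of these 3 genes are shown because their transcripts were highest in the same livers. They are from RefSeq on GRCm38.p6, plus strand, 5′ to 3′, at chr7:26173159-26173458 for Cyp2b9, chr7:26061245-26061544 for Cyp2b13 and chr7:25897408-25897707 for Cyp2b10, and capitals mark a match, on either strand, to AGGTCA or to TTCNNNGAA, the palindrome bound by STAT proteins such as Stat5b.
Cyp2b9: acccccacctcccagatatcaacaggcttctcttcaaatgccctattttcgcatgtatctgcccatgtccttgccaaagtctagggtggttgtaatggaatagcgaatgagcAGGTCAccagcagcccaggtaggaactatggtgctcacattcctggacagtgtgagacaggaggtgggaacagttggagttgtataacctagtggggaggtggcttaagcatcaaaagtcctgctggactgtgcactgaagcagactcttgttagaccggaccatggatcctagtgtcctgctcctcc
Cyp2b13: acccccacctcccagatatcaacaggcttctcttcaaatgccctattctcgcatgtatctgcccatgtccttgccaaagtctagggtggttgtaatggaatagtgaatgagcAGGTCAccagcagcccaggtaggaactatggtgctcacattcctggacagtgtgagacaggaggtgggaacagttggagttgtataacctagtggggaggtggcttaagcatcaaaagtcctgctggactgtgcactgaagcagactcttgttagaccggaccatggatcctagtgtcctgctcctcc
Cyp2b10: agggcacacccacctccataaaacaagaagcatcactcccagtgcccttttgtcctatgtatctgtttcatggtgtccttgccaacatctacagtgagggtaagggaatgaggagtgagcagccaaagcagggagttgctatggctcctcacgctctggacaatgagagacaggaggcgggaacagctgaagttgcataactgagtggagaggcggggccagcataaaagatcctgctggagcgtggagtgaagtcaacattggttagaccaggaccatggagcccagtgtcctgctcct
Cyp2b9 and Cyp2b13 matched at 99.3% of bases in alignment, and Cyp2b10 matched Cyp2b9 at 73.3%. AGGTCA is in the windows of Cyp2b9 and Cyp2b13 and not in that of Cyp2b10, while GCGTG, the core bound by the aryl hydrocarbon receptor, is in those of Cyp2b10 and Cyp1a1, in 14 of 68 member promoters (20.6%) and in 32.4% of all promoters. TTCNNNGAA is in none of the 3 windows, in 3 of 68 member promoters (4.41%) and in 8.3% of all promoters.

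The Cyp2c subfamily, which hydroxylates drugs and epoxidises arachidonic acid, is the largest here with 15 members, 12 of them tested. Their differences were small: -0.35 to 0.31 at 24 h (8 of 12 below 0, 2 of them at an unadjusted p under 0.05, and 0 at that p without livers 1 and 2) and -0.67 to 0.12 at 48 h (11 of 12 below 0, 1 at an unadjusted p under 0.05). Of all 19639 genes, 11206 lay below 0 at 24 h and 11226 at 48 h, and 6.58% and 4.11% were lower at that p. Cyp2c37, an arachidonic acid epoxygenase, was at 7.41, 7.43, 7.20 and 7.70 at 0 h, 6.86, 6.93, 7.24 and 7.32 at 24 h and 7.48, 7.36, 7.19 and 7.14 at 48 h. Livers 1 and 2 at 24 h were the lowest, and the difference at 24 h was -0.35 (adjusted p = 0.393), or -0.16 without them. Cyp2c50 showed the same livers lowest, at 7.08, 7.24, 7.0 and 7.46 at 0 h, 6.67, 6.71, 7.09 and 7.16 at 24 h and 7.25, 7.08, 6.86 and 6.95 at 48 h, with a difference of -0.29 at 24 h, or -0.07 without them. Cyp2c55, which hydroxylates arachidonic acid and is best known from the gut, was at -1.75, -1.70, -1.39 and -1.23 at 0 h, -0.38, -0.85, -2.03 and -1.59 at 24 h and -1.25, -1.69, -2.82 and -3.03 at 48 h. It was highest in liver 1 at 24 h and lowest in livers 3 and 4 at 48 h. It differed by 0.31 at 24 h and by -0.67 (SE 0.43, adjusted p = 0.851) at 48 h, but its second probe gave 0.16 and -0.21, and without livers 1 and 2 the 24 h difference was -0.29. Cyp2c70, which makes the muricholic acids of mouse bile, differed by -0.32 at 48 h (unadjusted p = 0.0191), at 7.56, 7.56, 7.37 and 7.74 at 0 h and 6.98, 7.27, 7.28 and 7.42 at 48 h with overlapping livers. Cyp2c29, a major hepatic epoxygenase, lay at 7.30, 7.13, 7.05 and 7.52 at 0 h, 7.29, 7.10, 7.20 and 7.18 at 24 h and 7.14, 7.26, 7.05 and 7.07 at 48 h, with overlap at all times and differences of -0.06 and -0.12. Cyp2c67, Cyp2c68 and Cyp2c69 differed by -0.16, -0.12 and -0.18 at 24 h and by -0.27, -0.19 and -0.27 at 48 h, and liver 4 at 0 h was the highest of the 12 in each of them. Cyp2c54 differed by -0.32 at 24 h (unadjusted p = 0.026), or by -0.14 without livers 1 and 2, and Cyp2c38, Cyp2c40 and Cyp2c44 by 0.01, 0.01 and 0.07. The probes of Cyp2c67 and Cyp2c68 share a run of 25 bases and may not tell these genes apart.

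All 9 Cyp2d members tested lay below 0 at 24 h, between -0.88 and -0.01, 5 of them at an unadjusted p under 0.05, and at 48 h they lay between -0.06 and 0.11. Of all 19639 genes, 11206 lay below 0 at 24 h and 6.58% were lower at that p. With livers 1 and 2 left out, 6 of 9 Cyp2d members lay below 0 at 24 h, with 10110 of all genes. The range was then -0.23 to 0.14, and 0 of these members had an unadjusted p under 0.05. Cyp2d9, a testosterone hydroxylase and a standard male-predominant transcript of mouse liver, was at 5.77, 6.29, 5.67 and 6.16 at 0 h, 4.38, 4.92, 5.72 and 5.89 at 24 h and 6.06, 6.20, 5.89 and 5.93 at 48 h. Below all others lay livers 1 and 2 at 24 h, and livers 3 and 4 at 24 h lay among those of 0 h. The difference was -0.74 (SE 0.29, adjusted p = 0.396) at 24 h and 0.05 at 48 h, and without livers 1 and 2 it was -0.17 at 24 h. Cyp2d34, whose probe shares a run of 17 bases with that of Cyp2d9, was at 1.06, 1.52, 0.82 and 1.43 at 0 h, -0.68, 0.03, 0.88 and 1.07 at 24 h and 1.24, 1.56, 1.13 and 1.1 at 48 h. Its low livers at 24 h were the same, and its difference was -0.88 (SE 0.33, adjusted p = 0.386), or -0.23 without livers 1 and 2. Cyp2d11 was at 8.26, 8.62, 8.25 and 8.52 at 0 h and 7.34, 7.78, 8.13 and 8.29 at 24 h, with liver 4 at 24 h overlapping, and differed by -0.53 (unadjusted p = 0.0142), or by -0.20 without livers 1 and 2. Cyp2d12 and Cyp2d13 differed by -0.20 and -0.01 (0.05 and 0.14 without livers 1 and 2), and Cyp2d22, often set beside human CYP2D6, by -0.27 (-0.14). Cyp2d10 was at 8.0, 8.09, 8.0 and 8.05 at 0 h, 7.57, 7.81, 7.89 and 7.99 at 24 h and 8.07, 8.18, 7.96 and 8.05 at 48 h. Its 24 h livers lay just below all those of 0 h, a difference of -0.22 (-0.10 without livers 1 and 2). Cyp2d40 lay at 6.39, 5.69, 5.94 and 5.91 at 0 h, 5.52, 5.62, 6.04 and 5.91 at 24 h and 5.71, 6.10, 6.0 and 6.16 at 48 h, so that liver 1 at 0 h was the highest and the rest overlapped. Cyp2d26 was measured by a pair of probes with differences of -0.01 and -0.26 at 24 h, and the first of these was 0.05 without livers 1 and 2.

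**Figure D3:**
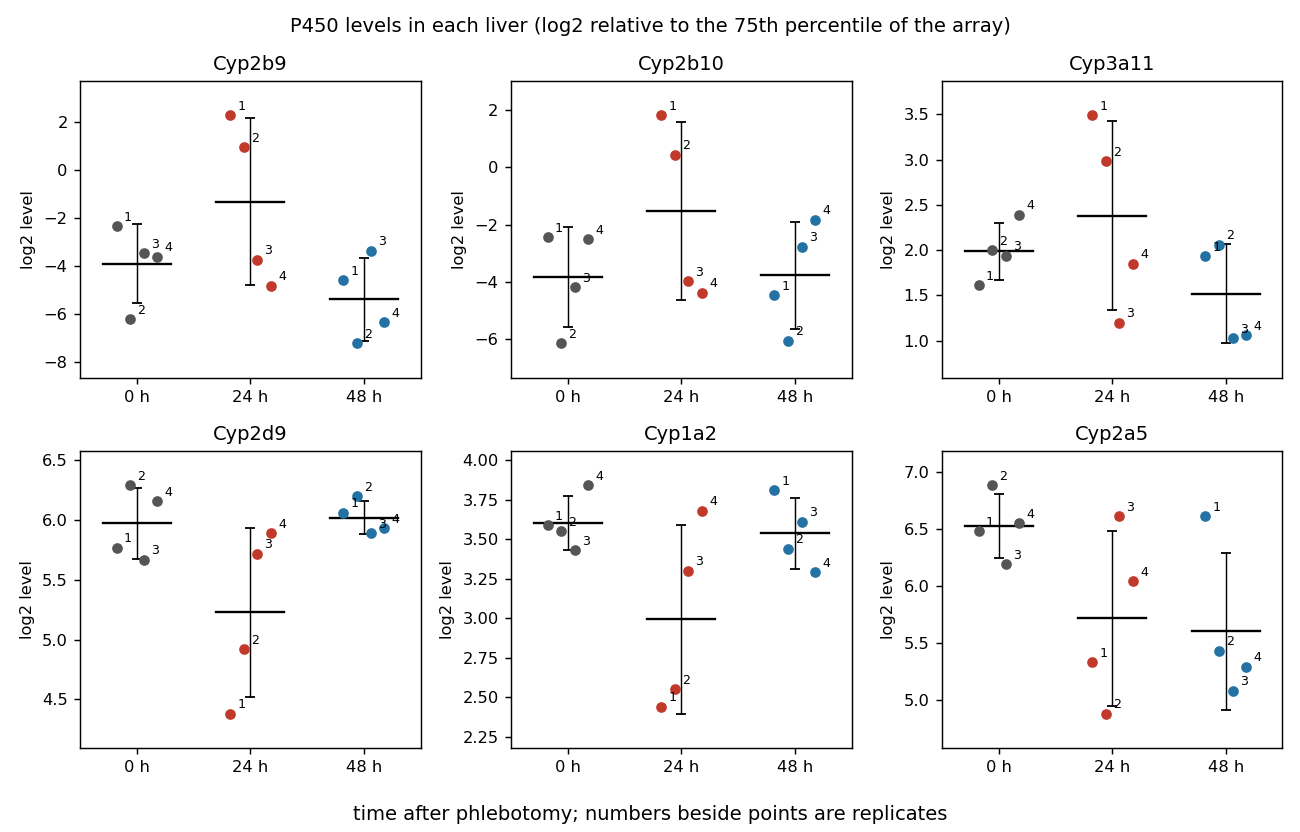
Log2 level relative to the array's 75th percentile in each liver (points, with the replicate number) at 0, 24 and 48 h after phlebotomy for Cyp2b9, Cyp2b10, Cyp3a11, Cyp2d9, Cyp1a2 and Cyp2a5. Bars are means and whiskers SD over 4 livers. Livers 1 and 2 at 24 h are the highest of the 12 in the first 3 of these genes and among the lowest in the other 3.

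Cyp2e1 oxidises ethanol and acetaminophen in pericentral hepatocytes. It was at 9.33, 9.38, 9.13 and 9.15 at 0 h, 8.83, 8.89, 9.34 and 9.18 at 24 h and 9.29, 9.40, 9.20 and 9.29 at 48 h. The lowest were livers 1 and 2 at 24 h, the others overlapped, and the difference was -0.19 (SE 0.11, adjusted p = 0.557) at 24 h and 0.05 at 48 h. It was 0.01 at 24 h without livers 1 and 2. Cyp2f2, which activates naphthalene and is known as a periportal transcript in liver, was at 8.25, 8.54, 8.24 and 8.55 at 0 h, 7.77, 7.95, 7.98 and 8.02 at 24 h and 8.15, 8.19, 7.80 and 8.15 at 48 h. All livers of both later times lay below those of 0 h. The difference was -0.46 (SE 0.11, unadjusted p = 0.00146, adjusted p = 0.314) at 24 h and -0.32 (SE 0.11, adjusted p = 0.647) at 48 h, and without livers 1 and 2 it was -0.39 at 24 h. On the 3 slides, each of which held all times, the 24 h difference of Cyp2f2 was -0.62, -0.29 and -0.55. The periportal marker sum lay at 9.83 to 9.96 at 0 h, 9.59 to 9.93 at 24 h and 9.67 to 9.81 at 48 h. Every liver at 48 h was thus below every control in that sum, and its part in the Cyp2f2 values was not tested. Cyp2g1, best known from the olfactory mucosa, was near background at -2.89, -2.91, -2.08 and -2.24 at 0 h, -3.93, -4.29 and -3.25 in livers 1 to 3 at 24 h and -1.84, -3.45, -2.84 and -3.37 at 48 h, and liver 4 at 24 h had no value. Its difference at 24 h, with that liver left out of the gene's fit, was -1.29 (SE 0.40, adjusted p = 0.344), -0.64 with normexp background correction, and the livers did not overlap. Without livers 1 and 2 a single 24 h liver remained, at -0.72 from the 0 h mean.

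Cyp2s1, an enzyme mainly of epithelia outside the liver that oxidises retinoids, was the member with the smallest unadjusted p among those above 0 at both times. It was at -2.73, -2.81, -2.32 and -2.56 at 0 h, -1.80, -1.71, -2.34 and -1.93 at 24 h and -1.78, -1.9, -2.0 and -2.51 at 48 h. Every liver at 24 and 48 h except liver 4 at 48 h and liver 3 at 24 h lay above all of 0 h. The difference was 0.66 (SE 0.18, adjusted p = 0.327) at 24 h and 0.56 (SE 0.18, adjusted p = 0.617) at 48 h. The Cyp2j epoxygenases (5 of 6 tested) lay between -0.06 and 0.18 at 24 h (0.10 and 0.24 without livers 1 and 2) and between -0.30 and 0.28 at 48 h. Cyp2r1, a vitamin D hydroxylase, differed by -0.23 at 24 h (unadjusted p = 0.0192), or by -0.15 without livers 1 and 2. Cyp2j5, an epoxygenase of liver and kidney, lay at 5.45, 5.34, 5.32 and 5.42 at 0 h, 5.21, 5.28, 5.62 and 5.37 at 24 h and 5.35, 5.26, 5.05 and 5.30 at 48 h, with overlapping times. The fatty acid hydroxylase Cyp2u1 had 3 probes with differences of 0.09, -0.26 and -0.32 at 24 h, and the first of these was 0.35 with livers 1 and 2 left out. Cyp2t4 was near background, at -3.06, -3.80, -3.98 and -3.92 at 0 h, -3.79, -4.05, -3.42 and -4.05 at 24 h and -4.08, -4.26, -4.11 and -3.91 at 48 h, above background on 3, 4 and 2 arrays at the respective times. Cyp2w1 differed by -0.25 at 24 h (-0.14 without livers 1 and 2) and -0.01 at 48 h.

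The 6 Cyp3a members tested lay above 0 at 24 h, between 0.27 and 0.46 (4 of 6 without livers 1 and 2), and at 48 h they ran from -0.49 to 0.29. Cyp3a11, the main counterpart of human CYP3A4 and a target of the pregnane X receptor, was at 1.61, 2.0, 1.94 and 2.39 at 0 h, 3.49, 2.98, 1.20 and 1.85 at 24 h and 1.93, 2.06, 1.03 and 1.06 at 48 h. Livers 1 and 2 at 24 h were the highest of the 12, while liver 3 at 24 h was below all of 0 h. Its difference was 0.39 (SE 0.45, adjusted p = 0.766) at 24 h and -0.46 at 48 h (-0.30 without liver 3 at 48 h), and without livers 1 and 2 the 24 h difference turned to -0.46. Within the 3 slides the 24 h difference was 1.68, 1.04 and -0.86. Cyp3a16, known from fetal and female liver, was at 1.17, 1.60, 1.25 and 1.93 at 0 h, 2.83, 2.34, 0.61 and 1.27 at 24 h and 1.22, 1.47 and 0.30 in livers 1 to 3 at 48 h, with liver 4 at 48 h missing. Its 24 h difference of 0.27 became -0.55 without livers 1 and 2, and at 48 h it was -0.49, or -0.14 without liver 3 at 48 h. Within each time its livers had the same order as those of Cyp3a11. Whether the Cyp3a16 probe also takes up the transcript of Cyp3a11 was not tested, so these may not be separate readings. Cyp3a44, a female-predominant gene that was not tested, was at -3.17, -4.07, -7.21 and -6.45 at 24 h and between -6.87 and -5.84 elsewhere, above background on 2 arrays at 24 h only.

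Cyp3a13, expressed in gut as well as liver, was at 4.47, 3.53, 3.72 and 3.53 at 0 h, 4.18, 4.37, 4.47 and 4.07 at 24 h and 3.77, 4.23, 4.03 and 4.27 at 48 h. Liver 1 at 0 h was as high as liver 3 at 24 h, and the remaining livers of 0 h lay below all of 24 h. The difference was 0.46 (SE 0.20, adjusted p = 0.428) at 24 h, also without livers 1 and 2, and 0.27 at 48 h. Cyp3a57 was at 3.20, 3.83, 3.54 and 3.04 at 0 h, 3.56, 4.15, 4.02 and 3.43 at 24 h and 4.33, 3.92, 3.44 and 3.08 at 48 h, with differences of 0.39 and 0.29 and overlapping times. Cyp3a25 was at 4.31, 4.95, 4.58 and 4.09 at 0 h, 4.65, 5.20, 5.13 and 4.51 at 24 h and 5.33, 4.91, 4.56 and 4.17 at 48 h, in the same order of livers at 24 h, and differed by 0.39 and 0.26. Cyp3a59 differed by 0.42 at 24 h (unadjusted p = 0.0824; 0.23 without livers 1 and 2) and 0.09 at 48 h. The Cyp3a57 probe shares a run of 29 bases with that of Cyp3a25, so these genes may not be told apart.

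The Cyp4a enzymes hydroxylate fatty acids at the end of the chain and are textbook targets of PPAR-alpha. Among the 57 members tested, the 3 Cyp4a members had the largest positive differences at 24 h. Cyp4a31 was at 1.55, 2.31, 1.77 and 2.85 at 0 h, 2.16, 3.48, 3.64 and 3.94 at 24 h and 2.79, 2.33, 3.11 and 2.40 at 48 h. Livers 2, 3 and 4 at 24 h were above all of 0 h, while liver 1 at 24 h overlapped. The difference was 1.19 (SE 0.38, adjusted p = 0.345) at 24 h and 0.54 at 48 h, and its other probe gave 1.19 and 0.79. Cyp4a10 was at 0.86, 1.07, 0.82 and 1.80 at 0 h, 1.0, 2.32, 2.61 and 2.82 at 24 h and 1.84, 1.51, 1.9 and 1.25 at 48 h, with the same order of livers at 24 h. Its difference was 1.05 (SE 0.36, adjusted p = 0.364) at 24 h and 0.49 at 48 h, and its other probes gave 1.03 and 0.66 at 24 h.

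Cyp4a14 was measured near background, at -4.38, -3.96, -4.72 and -4.34 at 0 h, -3.57, -2.51, -2.39 and -2.70 at 24 h and -4.24, -3.74, -1.94 and -4.05 at 48 h. Its probe was above background on 2, 4 and 3 arrays at the respective times, so the gene entered the test through its 24 h livers only. The 24 h livers all lay above those of 0 h, by 1.56, which is given as a description for that reason, and with normexp background correction the difference was 0.51. At 48 h it was 0.86, where liver 3 was the highest of the 12 livers, and without that liver, which carried kidney markers, it was 0.34. Cyp4a14 is also a kidney transcript, and the part of the kidney markers in its 48 h value was not tested. Without livers 1 and 2 at 24 h, the differences of Cyp4a14, Cyp4a31 and Cyp4a10 at 24 h were 1.81, 1.68 and 1.58, larger than with them. The livers then left, 3 and 4 at 24 h, were both on slide 3. On the 3 slides the 24 h difference of Cyp4a14 was 0.61, 2.22 and 1.80. For Cyp4a31 it was 0.23, 1.71 and 0.94, and for Cyp4a10 it was 0.03, 1.5 and 0.91.

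**Figure D4:**
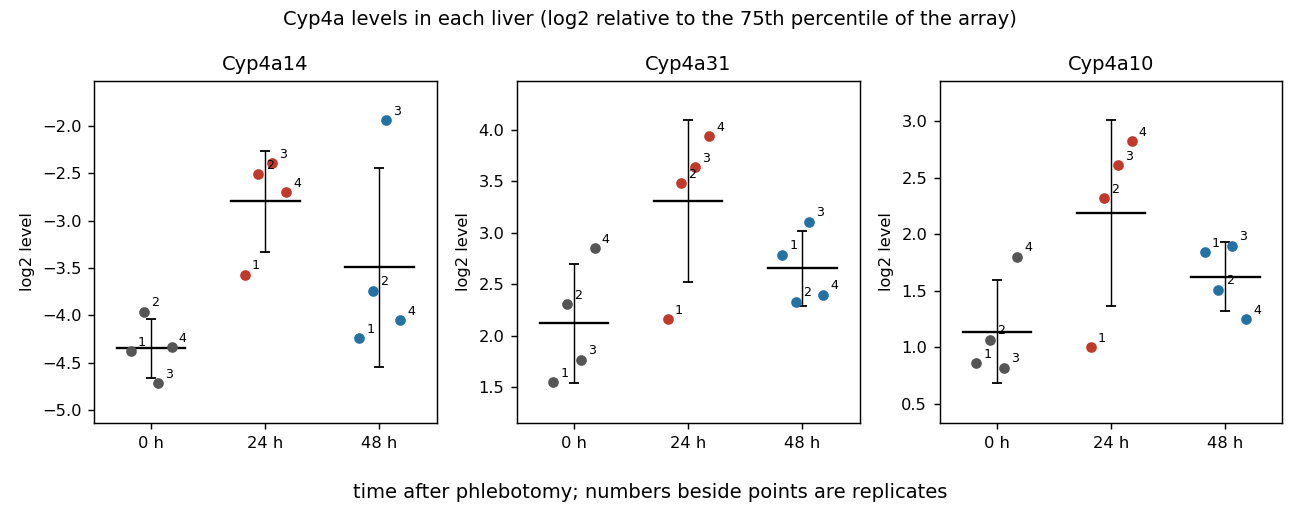
Log2 level relative to the array's 75th percentile in each liver (points, with the replicate number) at 0, 24 and 48 h for Cyp4a14, Cyp4a31 and Cyp4a10. Bars are means and whiskers SD over 4 livers. At 24 h liver 1 is the lowest of its group in all 3 genes, and liver 3 at 48 h is the highest Cyp4a14 value at -1.94.

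Among the other family 4 genes, Cyp4v3, the mouse counterpart of the fatty acid hydroxylase CYP4V2, was at 5.59, 5.74, 5.61 and 5.98 at 0 h, 4.81, 5.12, 5.39 and 5.45 at 24 h and 5.58, 5.64, 5.46 and 5.65 at 48 h. All livers at 24 h lay below all of 0 h, and 48 h overlapped with 0 h. The difference was -0.54 (SE 0.14, unadjusted p = 0.00249, adjusted p = 0.327) at 24 h and -0.15 at 48 h, and within slides it was -0.85, -0.49 and -0.56 at 24 h. It was -0.31 without livers 1 and 2. Cyp4f16 was at -1.96, -1.97, -1.95 and -2.11 at 0 h, -1.68, -1.80, -1.91 and -1.68 at 24 h and -2.07, -2.01, -1.9 and -2.19 at 48 h. All its 24 h livers were above those of 0 h, by a small difference of 0.23 (adjusted p = 0.381). Cyp4f18, a leukotriene B4 hydroxylase of neutrophils, differed by 0.25 at 24 h (unadjusted p = 0.0217; 0.13 without livers 1 and 2), and the summed neutrophil markers overlapped between times, at 1.05 to 5.06 at 0 h, 2.36 to 4.64 at 24 h and 1.01 to 3.58 at 48 h. Cyp4f14, the hepatic leukotriene B4 hydroxylase, stayed within a narrow range, at 6.25, 6.18, 6.21 and 6.44 at 0 h, 6.35, 6.4, 6.28 and 6.38 at 24 h and 6.20, 5.94, 6.29 and 6.17 at 48 h. Cyp4f13, Cyp4f15 and Cyp4f17 differed by -0.10, -0.07 and -0.13 at 24 h (0.05, 0.10 and 0.03 without livers 1 and 2), and Cyp4b1 by -0.12 (-0.23). Of the members tested, 29 of 57 had the same sign on all 3 slides at 24 h (50.9%, with 40.8% of all genes) and 19 of 56 at 48 h (33.9%, with 27% of all genes).

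Genes that work with the P450 enzymes were counted from lists, and none of their genes passed the adjusted threshold at 24 or 48 h. The counts of all lists stand beside these shares of all genes at an unadjusted p under 0.05. At 24 h 4.61% were higher and 6.58% lower, or 2.98% and 2.59% without livers 1 and 2. At 48 h 2.44% were higher and 4.11% lower. Of 20 tested transcriptional regulators, 2 were higher and 1 lower at 24 h at an unadjusted p under 0.05, with a median difference of -0.10, and without livers 1 and 2 these were 1, 0 and 0.00. The higher ones were Nr0b2, the bile acid induced repressor SHP, at 0.92, and the clock factor Dbp at 1.16, and the lower one was the aryl hydrocarbon receptor gene Ahr at -0.27. The receptors for Cyp3a and Cyp2b, Nr1i2 and Nr1i3, differed by 0.16 and -0.04. Of 15 genes of electron supply and heme handling, 1 was higher and 3 were lower, with a median of -0.08 (1, 0 and -0.01 without livers 1 and 2). The electron donor Por was at 4.80, 4.42, 4.52 and 4.73 at 0 h and 4.99, 5.06, 4.92 and 5.0 at 24 h, so that its livers did not overlap, and the difference was 0.37 (adjusted p = 0.327), while Cyb5b, Cyb5r3 and Blvrb differed by -0.36, -0.23 and -0.20 (-0.24, -0.16 and -0.03 without livers 1 and 2).

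The conjugating and hydrolysing enzymes of drug metabolism lay mostly below 0. Of 34 tested (37 listed), 31 lay below 0 at 24 h, where 57.1% of all genes did, with a median of -0.24, and 15 were lower and 1 higher (Sult1a1, 0.26) at an unadjusted p under 0.05. When livers 1 and 2 were left out, 27 lay below 0, with a median of -0.10, and 4 were lower and 0 higher. At 48 h, 8 were lower and 0 higher, with a median of -0.18. The carboxylesterase Ces1e was at 4.13, 4.77, 4.51 and 4.83 at 0 h and 3.53, 3.60, 3.87 and 3.99 at 24 h, with every liver at 24 h below every liver at 0 h and a difference of -0.81 (adjusted p = 0.314). Ugt2b1 and Gstp1 differed by -0.93 and -0.79, or by -0.47 and -0.35 without livers 1 and 2. Of 15 transporters, 2 were higher and 4 lower, with a median of -0.22 (1, 1 and -0.08 without livers 1 and 2). The higher ones were Slco1a4, an organic anion uptake carrier, at 0.79 (adjusted p = 0.314), and the efflux pump Abcb1b at 0.55.

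PPAR-alpha targets other than Cyp4a genes were split. Of 22 tested, 7 lay above and 15 below 0 at 24 h, with a median of -0.12, and 3 were higher (Acot3 0.87, Acot4 0.40 and Fgf21 1.34) and 2 lower (Pex11a -0.47 and Fabp1 -0.24) at an unadjusted p under 0.05. Leaving out livers 1 and 2, 14 lay above and 8 below 0, the median turned to 0.12, and 2 were higher and 0 lower. The differences were then 0.27 for Acot3, 0.19 for Acot4, 1.73 for Fgf21, -0.17 for Pex11a and -0.17 for Fabp1. At 48 h, 1 was higher (Vnn1, 0.66) and the median was -0.03. Vnn1 was highest in liver 3 at 48 h, which carried kidney markers, and without that liver 0 were higher. Acot3 is also in the list of female-predominant genes.

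Sex-dependent liver genes other than P450 genes stood apart in livers 1 and 2 at 24 h. Of 12 tested male-predominant genes (13 listed), 7 were lower and 0 higher at 24 h at an unadjusted p under 0.05, with a median of -0.44, where 6.58% and 4.61% of all genes were, and 0 in either direction at 48 h. The count was 0 and the median -0.12 without livers 1 and 2. The median of these genes relative to their 0 h means was -0.86, -0.73, -0.12 and -0.12 in livers 1 to 4 at 24 h, and between -0.23 and 0.12 in the livers of 0 and 48 h. Of 12 listed female-predominant genes only 5 could be tested, and 4 of them were higher at 24 h, with a median of 0.87 (2 and 0.36 without livers 1 and 2). Their medians by liver were 1.76, 1.93, 0.31 and 0.50 at 24 h and -0.31 to 0.58 at the other times. Among the P450 members described above as sex-dependent, Cyp2d9 was lowest and Cyp2b9, Cyp2b13, Cyp3a16 and Cyp3a44 were highest in these same livers. Whether the lists and these members are linked was not tested. The other members were not sorted by sex dependence. The members so described are thus not a full list of sex-dependent P450 genes, and how many follow this pattern was not counted. Among the members not sorted, Cyp2a4 was low in these livers, at 4.74 and 4.02 against 5.13 to 5.79 at 0 h. That is the opposite direction to Cyp2b9 and Cyp2b13.

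The acute phase state of each liver was read from Saa1 and Saa2, serum amyloid A genes that the liver induces in inflammation, with probes at chr7:53996070-53996129 and chr7:54009535-54009594 on mm9. Their mean level (log2) was 9.41, 5.67, 7.14 and 5.72 at 0 h, 9.80, 9.29, 9.74 and 8.39 at 24 h, and 6.0, 8.65, 6.87 and 7.04 at 48 h. The group means were 6.99 ± 1.76, 9.31 ± 0.65 and 7.14 ± 1.11 (SD, n = 4). Liver 1 at 0 h lay within the range of the 24 h livers, and liver 2 at 48 h was above liver 4 at 24 h. Saa1 differed by 2.37 (SE 0.81, adjusted p = 0.363) and Saa2 by 2.27 (SE 0.77, adjusted p = 0.363) at 24 h, and by 0.18 and 0.13 at 48 h. Of 28 acute phase genes listed, these included, 10 were higher and 0 lower at 24 h at an unadjusted p under 0.05, with a median of 0.45. Of all genes, 4.61% were higher and 6.58% lower at that p. Without livers 1 and 2, 1 acute phase gene was higher, with 2.98% of all genes, and the median was 0.39.

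A slope on the Saa level was fitted in all 12 livers with time in the model, so that it is the log2 difference per log2 unit of Saa between livers of the same time. At an adjusted p under 0.05, 0 members and 0.377% of all 19637 genes were called. At an unadjusted p under 0.05, 2 members (Cyp3a13 and Cyp2d40) had a positive slope, with 8.07% of all genes, and 1 (Cyp4a31) a negative slope, with 2.55%. The member slopes ran from -0.31 to 0.22 with a median of -0.02, beside 0.01 over all genes.

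Cyp3a13 had the steepest positive slope, 0.22 (SE 0.0392, unadjusted p = 0.00022, adjusted p = 0.0545), close to the threshold. It was 0.25, 0.17 and 0.16 within 0, 24 and 48 h. It passed under 4 alternatives, with an adjusted p of 0.0256 after normexp, 0.0439 over genes above background on every array, 0.0198 with a trended robust variance and 0.0423 without liver 1 at 24 h. Without liver 1 at 0 h, the slope was 0.15 and the adjusted p 0.995. Over the 12 livers without time in the model, the correlation of Cyp3a13 with Saa was r = 0.86 (permutation p = 0.00046, adjusted p = 0.101) and rho = 0.79 (permutation p = 0.00304, adjusted p = 0.194), and r was 0.76 without the 2 livers farthest from the median Saa level. Given the Saa level, the 24 h difference of Cyp3a13 was -0.05 in place of 0.46. With the Saa level as a covariate, 7 members had an unadjusted p under 0.05 for the 24 h difference, in place of 21, and 8.26% of all genes did, in place of 11.2%. The median member difference was -0.11 in both fits. Since the Saa level itself was higher at 24 h, the covariate can widen the standard error of that difference. What the lower count owes to the Saa level was not tested.

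Other slopes turned sign with the setting. Cyp4a31 had a slope of -0.31 (unadjusted p = 0.0246, adjusted p = 0.394) with time in the model and 0.05 without it, with r = 0.10, and Cyp4a10 had -0.20 and 0.07. Cyp2d40 had 0.13 (adjusted p = 0.406), but -0.10 in the 24 h livers alone. Cyp2d9 had r = -0.65 (permutation p = 0.0104, adjusted p = 0.228) and rho = -0.76, and r was -0.56 without the 2 farthest livers, and Cyp4v3 had r = -0.71 (permutation p = 0.00379, adjusted p = 0.173). With time in the model, their slopes were -0.12 (unadjusted p = 0.281) and -0.06 (unadjusted p = 0.226). Correlations were computed for 19486 genes with 12 values. Of the 55 members among them, 26 were above 0 and 29 below, with a median r of -0.03 beside 0.03 over all genes, and 0 members had an adjusted permutation p under 0.05 for Pearson's r, where 32 genes did. No correlation was computed within a slide, each of which holds 4 livers. With the slide as a block beside time, 0 members were called, with 42 of all 19637 genes, and the smallest adjusted p of a member was 0.0732.

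**Figure D5:**
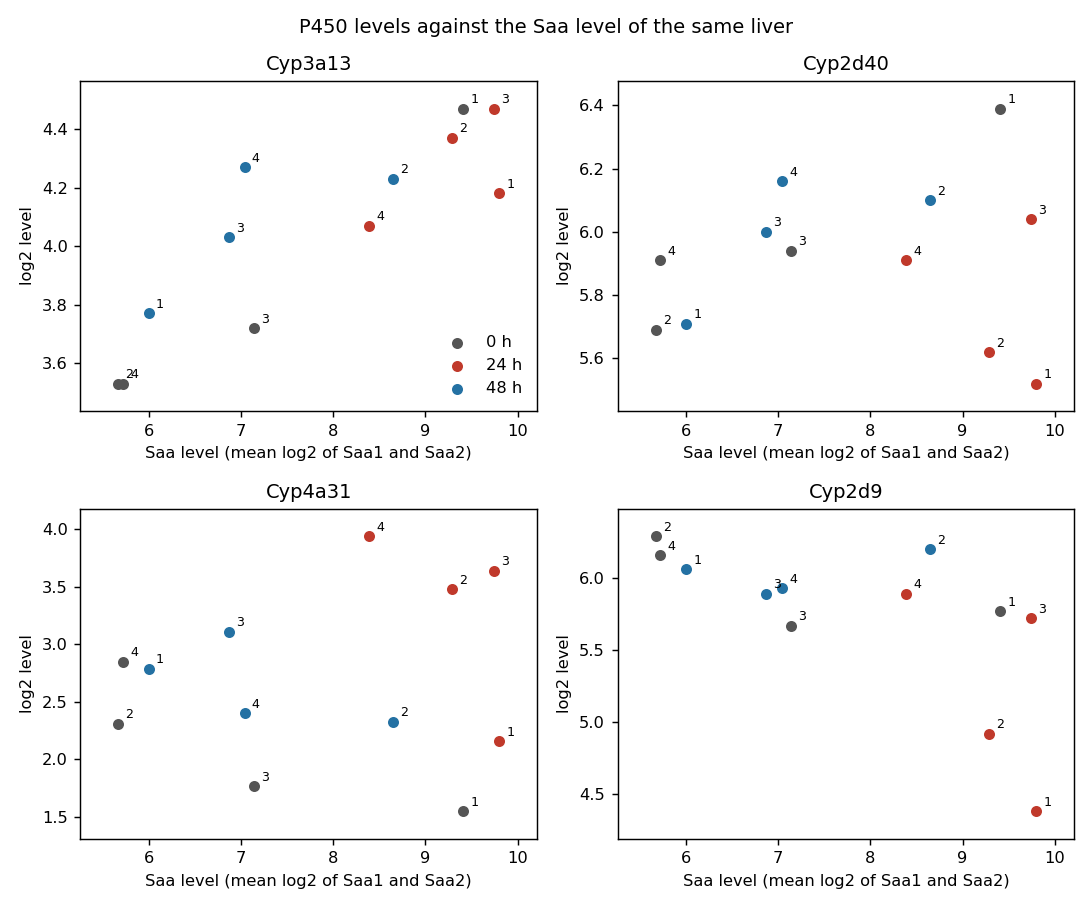
Log2 level of Cyp3a13, Cyp2d40, Cyp4a31 and Cyp2d9 (vertical axes) against the mean log2 level of Saa1 and Saa2 (horizontal axis), 1 point per liver, by time after phlebotomy. Liver 1 at 0 h, at a Saa level of 9.41, sits among the 24 h livers, and the slope of Cyp3a13 is positive within each time (0.25, 0.17 and 0.16).

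In bone marrow, 25 members were tested. At an adjusted p under 0.05, 0 members were called at 24 h, with 1% of all 21381 genes, and 0 at 48 h, with 1.06%. The smallest adjusted p of a member was that of Cyp4b1, an enzyme best known from lung, at -0.54, -0.69, -0.46 and -0.14 at 0 h, -1.29, -0.80, -1.1 and -0.88 at 24 h and -0.85, -0.70, -1.31 and -0.87 at 48 h. The marrows of both later times lay below all of 0 h, by -0.56 (SE 0.16, adjusted p = 0.155) at 24 h and -0.48 (adjusted p = 0.183) at 48 h. Cyp4f18, the neutrophil leukotriene hydroxylase, was at 4.13 ± 0.12, 4.04 ± 0.33 and 3.85 ± 0.09 (SD, n = 4) at 0, 24 and 48 h, and Cyp1b1, not tested in liver, was at 0.26, 0.08 and 0.13. Cyp2u1 was at 5.77 ± 0.18, 5.71 ± 0.14 and 5.79 ± 0.19 by 1 of its 3 probes. The other Cyp2u1 probes were far lower in the marrows, at -7.25 to -4.33 and at -4.63 to -2.38, so the level of this gene in marrow is uncertain. Cyp2w1 differed by -0.68 at 24 h (unadjusted p = 0.0241), with -0.66 without marrow 2. Marrow 2 at 24 h held hepatic members: Cyp2e1 was at 5.63 there and between -4.20 and -2.49 in the other 11 marrows. The 24 h difference of Cyp2e1 was 2.13 with that array and -0.11 without it. Above background on every marrow array were 20 members, on some 46 and on none 8, and without that array 20, 31 and 23.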

How the data were processed

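RNA of 24 samples was hybridised to 24 Agilent arrays, and the titles of the samples gave group, time and replicate. The authors deposited scanner files with spot intensity from Agilent Feature Extraction 10.10.1.1, per the submitters' processing notes, and the processed intensity is background subtracted per the file headers. The authors also deposited a table of log2 values whose normalization is not given in the sources used here. Each of its columns had a Spearman correlation of 0.9973 to 0.9992 with the scanner intensity of its array, and it served as an alternative only. The submitters' processing notes also name limma.

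The log2 processed intensity of each array was centred on the array's 75th percentile, control spots and outlier spots were left out, and spots of a probe were averaged. Probes were named by accession (32994), symbol (10224) or synonym (520), and 12867 kept the file's name. Cyp2c44, as the files call it, is now named Cyp2c23. Probe positions are on mm9 per the file headers, and their place in exons or untranslated regions was not analysed here. The filter kept probes that were well above background on the 4 arrays of 1 or more groups, and a gene was represented by its kept probe with the highest mean (52 members had 1 probe, 22 had more). One fit per tissue held the 3 times, with limma 3.58.1 in R 4.3.3 (lmFit and eBayes, two-sided, Benjamini-Hochberg, threshold 0.05). Exact permutation tests of 4 against 4 mice cannot give a p below 0.0286, and correlations used 100000 permutations, whose smallest p is 1e-05. Groups were compared at 24 and 48 h, and a slope on the mean of Saa1 and Saa2 was fitted with time as a term.

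Members described in full were the 5 tested members with the largest increase and the 5 with the largest decrease at each time, those whose 4 later livers all lay on one side of 0 h, the 5 with the smallest p for the Saa slope in each direction, and 5 anchors (Cyp1a2, Cyp2b10, Cyp2e1, Cyp3a11 and Cyp4a14). Others named were chosen after their values were seen. The members and lists were chosen with earlier results of these data known. 1 erythroid marker of the list is not reported here. On data simulated for the liver comparison at 24 h over 19488 genes, 52% of genes changed 1.5-fold and 88% of those changed 2-fold were recovered. The noise was drawn independently for each gene at its own spread, so it lacks a shift shared by genes, as in livers 1 and 2. The rates need not hold for the real livers, where Cyp4a31 (2.28-fold at 24 h, limma adjusted p = 0.345) was not called. Same-numbered livers did not deviate together: the 12 correlations ran from -0.27 to 0.15, and 3 of them were over 0.1. Alternatives covered scaling, background correction (normexp, offset 50), the authors' values, the filter, probes per gene, slide, replicate number, variance model and each array left out. Leaving out livers 1 and 2 at 24 h together, for members and lists alike, was added after the data were seen.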

Additional observations from a re-analysis of the deposited data

Results flagged for a closer look

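In 82 groups of 4 samples the highest or lowest value was compared with the others by Dixon's ratio, which picks about 1 group in 20 by chance, and 2 stood out. Cyp2f2 was at 7.80 in liver 3 at 48 h and between 8.15 and 8.19 in the other livers of that time. Cyp4f16 was at -2.11 in liver 4 at 0 h and between -1.97 and -1.95 in the others.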

How the results depend on the processing

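In each comparison of times, 0 members passed the adjusted threshold under any alternative run. The count of members at an unadjusted p under 0.05 in liver at 24 h ran from 6 to 24 (21 as reported). The share of all genes at that p moved too, from 4.61% higher and 6.58% lower as reported to 2.98% and 2.59% without livers 1 and 2, which gave the 6. The replicate number as a block also called 0 members in liver and marrow, with a smallest adjusted p of a member of 0.391 at 24 h and 0.733 at 48 h in liver. The slide as a block gave a smallest adjusted p of 0.146 at 24 h. For the Saa slope, 1 member (Cyp3a13) in place of 0 passed after normexp, over genes above background on every array and with a trended robust variance, and leaving out 1 array gave 0 to 1. Its adjusted p was 0.227 with the replicate block.

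Over 54 values of described members and 1412 settings, 23 turned sign, none of them past the threshold, and the cause was not tested. At 24 h, leaving out livers 1 and 2 gave -0.29 for Cyp2c55, -0.55 for Cyp3a16 (-0.08 to 0.66 without 1 liver), -0.46 for Cyp3a11 and 0.01 for Cyp2e1, and the Saa level as a covariate gave -0.05 for Cyp3a13. At 48 h, leaving out 1 liver gave -0.05 to 0.15 for Cyp2d9, -0.08 to 0.16 for Cyp2d34, -0.01 to 0.06 for Cyp2d10 and -0.16 to 0.02 for Cyp1a2, and the authors' values gave 0.02 for Cyp4f16. Saa slopes turned to 0.05, 0.07 and 0.01 for Cyp4a31, Cyp4a10 and Cyp4f14 without a time term, to -0.10, -0.06 and 1.3 for Cyp2d40, Cyp2u1 and Cyp2g1 in the 24 h livers alone, to -0.08 for Cyp2t4 in the 48 h livers alone and to -0.01 for Cyp2u1 with its probes averaged. Signal over background limits Cyp2b, Cyp1a1, Cyp2g1 and Cyp4a14, and 4 mice per time limit the rest.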
